A study of Mus musculus with 8 samples.

Results

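The 8 genes described here are an erythroid set: the transcription factors Klf1 and Gata1, the erythropoietin receptor gene Epor, and 5 genes for proteins of the red cell membrane, Kel, Rhag, Rhd, Slc4a1 and Epb42. They were chosen by name from 22180 genes that had at least 1 probe set naming that gene alone, each was read from its single such probe set, and all 8 passed the filter on low values. The tissue was the thoracic annulus fibrosus, the fibrous outer ring of the intervertebral disc, of wild-type (WT) Black 6 mice and of mice without ENT1, an equilibrative nucleoside transporter. ENT1-null mice carried a deletion of exons 2 to 4 of its gene, Slc29a1, and the labels describe no promoter, Cre driver or tissue for it. Both genotypes were sampled at 2 months and at 6 months of age, which gave 4 groups with 2 arrays each, and each array held pooled RNA of 5 to 6 thoracic annulus tissues. The labels leave unsaid whether different animals went into the 2 pools of each group, so p-values cover only the spread from pool to pool.

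Red cells arise from progenitors that erythropoietin keeps alive through its receptor. Gata1 and Klf1 are DNA-binding proteins that switch on much of the erythroid programme, and in maturing cells this includes the membrane proteins that carry blood group antigens, exchange anions and anchor the spectrin skeleton. The annulus is a sparsely vascularised cartilaginous tissue with no known blood-forming role, while the neighbouring vertebral bodies hold red marrow.

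Gata1 binds GATA forms of DNA sequence, so the stretches of promoter that hold such letters are shown for the genes that had them. The sequences are RefSeq's, on GRCm38.p6, and the table used had an entry for 7 of the 8 genes, Slc4a1 being the other. Each runs 5′ to 3′ on the gene's strand and ends at the base before the annotated start, apart from Epb42, whose stretch runs from 250 to 191 bases before the start. Capitals mark the GATA forms searched for, on either strand: AGATAA and, with its last base changed, AGATAG, and the matching pair that begins with T, TGATAA and also TGATAG.
Klf1 (chr8:84901857-84901981, plus strand): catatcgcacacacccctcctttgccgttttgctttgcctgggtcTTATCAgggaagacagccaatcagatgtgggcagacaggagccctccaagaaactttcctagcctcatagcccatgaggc
Epor (chr9:21963577-21963701, minus strand): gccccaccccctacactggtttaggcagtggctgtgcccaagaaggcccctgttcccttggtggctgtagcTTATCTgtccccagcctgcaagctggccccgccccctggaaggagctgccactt
Kel (chr6:41704326-41704450, minus strand): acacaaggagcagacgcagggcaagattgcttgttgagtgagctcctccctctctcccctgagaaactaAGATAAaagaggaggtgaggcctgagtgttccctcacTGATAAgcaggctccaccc
Rhag (chr17:40811024-40811148, plus strand): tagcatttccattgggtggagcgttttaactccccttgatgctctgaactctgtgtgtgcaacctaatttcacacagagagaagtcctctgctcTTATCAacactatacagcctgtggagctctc
Rhd (chr4:134864411-134864535, plus strand): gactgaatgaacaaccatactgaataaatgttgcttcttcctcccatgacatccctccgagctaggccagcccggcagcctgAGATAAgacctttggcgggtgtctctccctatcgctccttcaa
Epb42 (chr2:121037068-121037127, minus strand): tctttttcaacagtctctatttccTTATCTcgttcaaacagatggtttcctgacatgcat

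The Klf1 form lies 80 to 75 bases before the start, and Epor's lies 54 to 49 bases before it. Kel has a pair of forms, at 56 to 51 and at 19 to 14 bases before the start. Rhag's is at 31 to 26 bases, Rhd's at 43 to 38 bases and Epb42's at 226 to 221 bases before the start. In the 250 bases before the start, 6 of the 7 genes held a GATA form, against 26.5% of 32851 RefSeq promoter windows of that length, and Gata1 was the gene without one. A CACC form of the kind that Klf1 binds, CCNCNCCC on either strand, was in 2 of the 7 (Gata1 and Epor), against 45.9% of all windows. Epor's CACC matches overlap in pairs, at 124 to 117 with 122 to 115 bases before the start, and at 28 to 21 with 26 to 19. No match of either form was tested for binding here.

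All 8 genes had the same order of group means: 2-month WT lowest, then 6-month WT, then 2-month ENT1-null, then 6-month ENT1-null. The values are log2 intensities after robust multi-array averaging (RMA), on which 1 unit is a doubling, and levels are compared between arrays for 1 probe set at a time. In the first step of that order, from 2-month to 6-month WT, the arrays of the neighbouring groups overlapped for 6 of the 8 genes. For the other 2 the 6-month arrays lay wholly above, as they did for 13.5% of all genes tested. In the later steps the arrays overlapped for none of the 8. In the last step the 6-month ENT1-null arrays lay wholly above for 4660 of all 15526 genes tested. Shares of all genes without overlap in the middle step, or with this order, were not computed. The smallest gap between the highest 6-month WT array and the lowest 2-month ENT1-null array was 0.10, for Rhag. Whole-tissue RNA cannot tell more erythroid cells from more of these transcripts per cell.

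**Figure D1:**
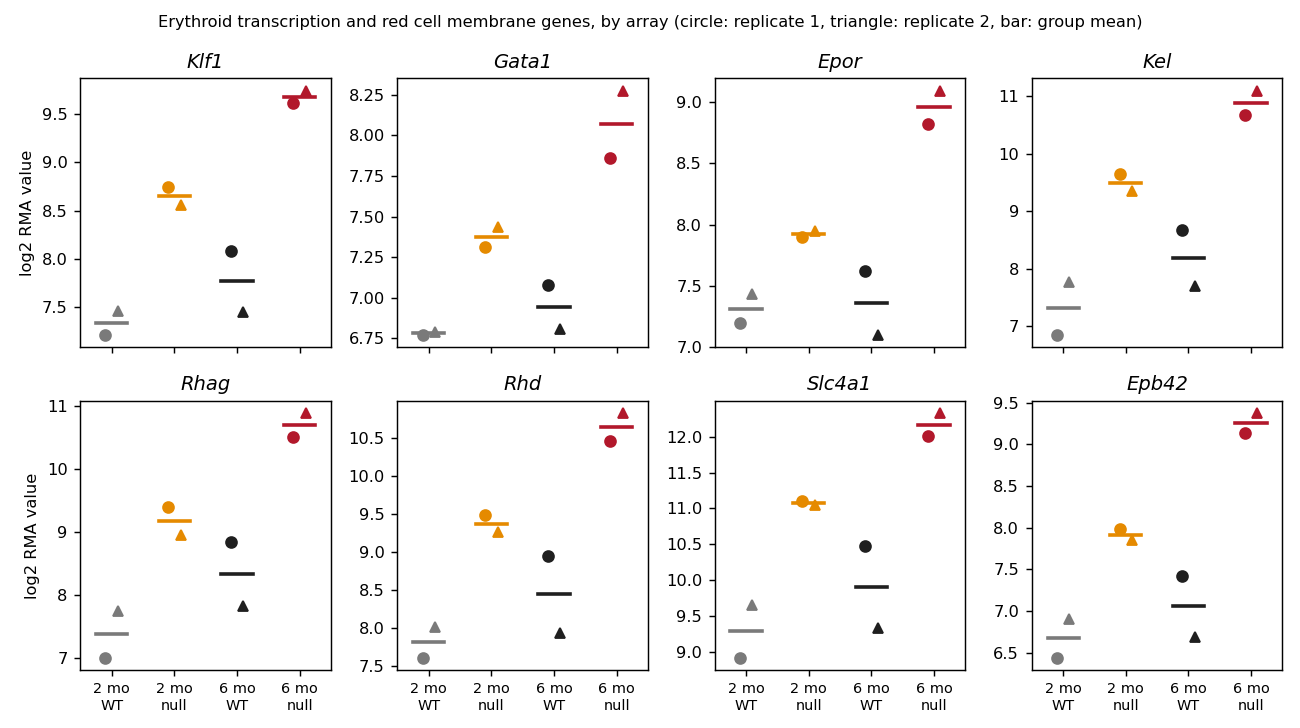
Log2 RMA values (vertical axis) of the 8 erythroid genes on each of the 8 arrays, with 1 panel per gene; the horizontal axis gives the 4 groups, circles are replicate 1, triangles replicate 2 and horizontal bars group means. In every panel both ENT1-null arrays lie above both WT arrays of the same age, and the 6-month ENT1-null arrays are highest.

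Among the regulators, Klf1, an erythroid zinc-finger activator of globin and membrane genes, measured 7.21 and 7.45 in 2-month WT, 8.74 and 8.56 in 2-month ENT1-null, 8.08 and 7.45 in 6-month WT, and 9.61 and 9.75 in 6-month ENT1-null annulus. Its 4 WT arrays all lay below its 4 ENT1-null arrays. Gata1, the zinc-finger factor that erythroid and megakaryocytic cells depend on, measured 6.77 and 6.79 in 2-month WT, 7.32 and 7.44 in 2-month ENT1-null, 7.08 and 6.81 in 6-month WT, and 7.86 and 8.28 in 6-month ENT1-null annulus. It had the narrowest range of the 8 genes, 2.84-fold from its lowest to its highest array, again with no overlap between genotypes. Epor, the receptor through which erythropoietin signals, measured 7.19 and 7.43 in 2-month WT, 7.90 and 7.95 in 2-month ENT1-null, 7.62 and 7.10 in 6-month WT, and 8.82 and 9.10 in 6-month ENT1-null annulus. Its lowest array was a 6-month WT array, replicate 2, and its WT arrays of both ages were intermixed.

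Of the membrane genes, Kel, which encodes the Kell blood group metalloprotease, had the widest range, 4.25 or 19.1-fold. Its levels were 6.85 and 7.76 in 2-month WT, 9.65 and 9.34 in 2-month ENT1-null, 8.68 and 7.70 in 6-month WT, and 10.67 and 11.10 in 6-month ENT1-null annulus. The 2-month ENT1-null arrays of Kel lay 0.66 or more above every WT array. Rhag, the Rh-associated glycoprotein that brings the Rh complex to the surface, gave 7.01 and 7.75 in 2-month WT, 9.39 and 8.94 in 2-month ENT1-null, 8.84 and 7.83 in 6-month WT, and 10.50 and 10.88 in 6-month ENT1-null annulus. One WT array at 6 months, replicate 1, came within 0.10 of the lower 2-month ENT1-null array of Rhag. Rhd, the Rh antigen subunit of the same complex, gave 7.62 and 8.01 in 2-month WT, 9.48 and 9.26 in 2-month ENT1-null, 8.95 and 7.94 in 6-month WT, and 10.46 and 10.82 in 6-month ENT1-null annulus. For Rhd, as for every gene of the set, 6-month WT replicate 1 was the highest WT array.

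Slc4a1, the chloride-bicarbonate exchanger that is also the main anchor of the red cell skeleton, read 8.92 and 9.65 in 2-month WT, 11.10 and 11.05 in 2-month ENT1-null, 10.48 and 9.34 in 6-month WT, and 12.01 and 12.33 in 6-month ENT1-null annulus. Epb42, a skeleton protein that binds this exchanger and ankyrin, read 6.44 and 6.90 in 2-month WT, 7.98 and 7.85 in 2-month ENT1-null, 7.42 and 6.69 in 6-month WT, and 9.13 and 9.37 in 6-month ENT1-null annulus. For both genes the genotypes did not overlap at either age, and the WT arrays of the 2 ages did overlap.

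At 6 months all 8 genes rose in ENT1-null annulus. Of all 15526 genes tested, 38.8% passed an adjusted p of 0.05 in this comparison and 21.2% did so in the upward direction. The adjusted p-values come from limma's moderated test with Benjamini-Hochberg adjustment over all genes tested, and ± gives the standard error. The median log2 difference of the 8 genes was 2.20, against -0.03 over all genes, and for 8 of 8 both ENT1-null arrays lay above both WT arrays, as they did for 35.6% of all genes. Among the regulators, Klf1 was higher by 1.92 ± 0.20 (3.78-fold, adjusted p = 0.000539), Gata1 by 1.12 ± 0.15 (2.18-fold, adjusted p = 0.00115) and Epor by 1.60 ± 0.18 (3.04-fold, adjusted p = 0.000635). Kel had the largest difference of the 8, 2.69 ± 0.38 (6.47-fold, adjusted p = 0.00140), which ranked 33 from the top of all 15526. Rhag was higher by 2.35 ± 0.36 (5.11-fold) and Rhd by 2.19 ± 0.31 (4.58-fold), with adjusted p of 0.00204 and 0.00141. Slc4a1 was higher by 2.26 ± 0.37 (4.78-fold) and Epb42 by 2.20 ± 0.24 (4.59-fold), with adjusted p of 0.00253 and 0.000630. The 5 membrane genes ranked between 33 and 155, and Klf1, Epor and Gata1 ranked 278, 471 and 898.

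At 2 months every gene of the set was again higher on both ENT1-null arrays than on both WT arrays, and 1 of the 8, Klf1, passed the test. Over all genes 0.683% passed, 0.296% upward, and for 19.0% the ENT1-null arrays lay wholly above the WT arrays. Klf1 rose by 1.32 ± 0.20 (adjusted p = 0.0443). The other differences were 0.60 ± 0.15 for Gata1 (adjusted p = 0.0948), 0.61 ± 0.18 for Epor (0.125), 2.19 ± 0.38 for Kel (0.0540), 1.79 ± 0.36 for Rhag (0.0636), 1.56 ± 0.31 for Rhd (0.0608), 1.79 ± 0.37 for Slc4a1 (0.0649) and 1.24 ± 0.24 for Epb42 (0.0600), with the adjusted p of each in parentheses. Their median with Klf1 was 1.44, against -0.04 over all genes, and 8 of 8 had an unadjusted p under 0.05, as did 19.4% of all genes. Kel's difference ranked 5 from the top of all 15526 genes, the other membrane genes ranked between 24 and 141, Klf1 ranked 120, and Epor and Gata1 ranked 683 and 708. The count at this age changed when 1 array was left out, to 0 for 2-month WT replicate 1 or any of the 4 ENT1-null arrays, to 3 for 2-month WT replicate 2, and to 6 for either 6-month WT array. With no filter on low values or with only the arrays of this age, no gene of the set passed.

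**Figure D2:**
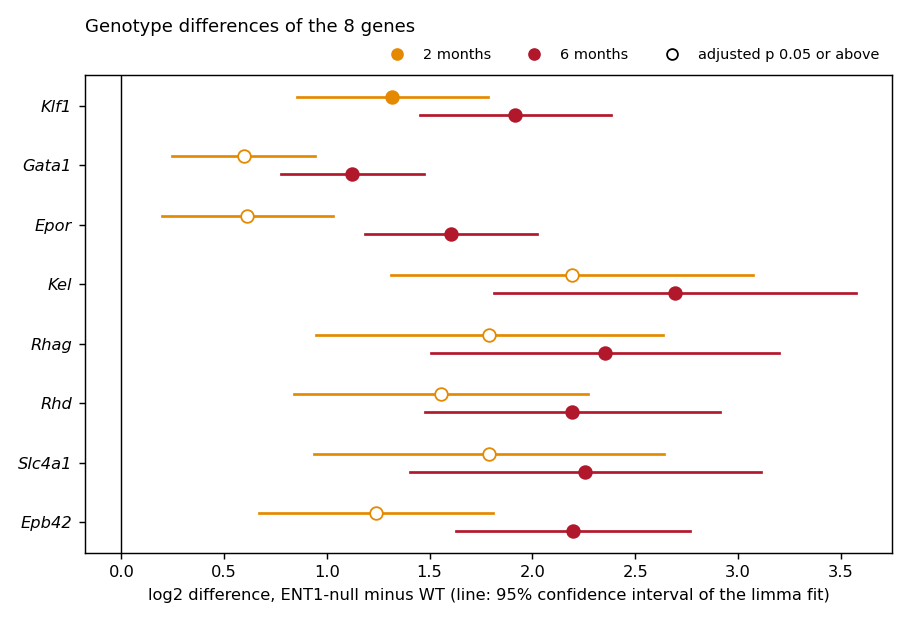
Log2 difference, ENT1-null minus WT (horizontal axis), of each of the 8 erythroid genes (rows) at 2 and at 6 months; lines are the 95% confidence interval of limma's fit, and open circles are differences that did not pass an adjusted p of 0.05. All 16 estimates lie above 0; at 6 months they run from 1.12 for Gata1 to 2.69 for Kel, and at 2 months from 0.60 for Gata1 to 2.19 for Kel.

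The test of whether the genotype difference changed between the ages was passed by 0 of the 8 genes, against 4.45% of all genes in either direction. Limma's unadjusted p was under 0.05 for 3 of them, Gata1, Epor and Epb42, and for 4186 of all 15526 genes. All 8 differences of differences were above 0. Epor had the largest, 0.99 ± 0.25 (95% confidence interval 0.40 to 1.58, adjusted p = 0.0626), and without 6-month WT replicate 1 it was 1.25 with an adjusted p of 0.0434. Epb42 followed with 0.96 ± 0.34 (adjusted p = 0.129). For Kel the value was 0.50 ± 0.53 with an interval of -0.74 to 1.74, so a larger or a smaller genotype difference at 6 months could not be told apart for that gene. For Slc4a1 it was 0.47 ± 0.52, and -0.10 without 6-month WT replicate 2.

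Within the ENT1-null genotype, all 8 genes were higher at 6 than at 2 months, and 7 of the 8 passed the test. Of all genes 22.2% passed that test, 11.9% upward, and the 6-month arrays lay wholly above the 2-month arrays for 8 of 8 genes of the set and for 4660 of the 15526 tested. Klf1 rose by 1.03 ± 0.20 (adjusted p = 0.0111), Gata1 by 0.69 ± 0.15 (0.0163) and Epor by 1.04 ± 0.18 (0.00751). Rhag rose by 1.52 ± 0.36 (0.0226), Kel by 1.39 ± 0.38 (0.0360), Epb42 by 1.34 ± 0.24 (0.00905) and Rhd by 1.27 ± 0.31 (0.0242), while Slc4a1, at 1.09 ± 0.37, did not pass (0.0720). Without 6-month ENT1-null replicate 2 none of the 8 passed, without either 2-month ENT1-null array 3 passed, and without 6-month ENT1-null replicate 1 4 passed. This comparison shares its arrays with the genotype comparisons at both ages.

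Within WT, 0 of the 8 genes passed between the ages, as did 0.0% of all genes by limma, with 2067 genes at an unadjusted p under 0.05. The differences ran from 0.04 for Epor to 0.96 ± 0.36 for Rhag (adjusted p = 0.330), with a median of 0.53 against -0.06 over all genes. Kel, at 0.89 ± 0.38 (adjusted p = 0.372), and Rhag had an unadjusted p under 0.05. The 6-month arrays lay wholly above the 2-month arrays for 2 of 8, Gata1 and Rhag, and for 13.5% of all genes. Epor's difference was -0.21 without 6-month WT replicate 1 and -0.07 without 2-month WT replicate 1.

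The genes of the set also moved in 1 direction between the arrays of each group except 2-month ENT1-null. In 6-month WT annulus all 8 were lower on replicate 2 than on replicate 1, by 0.27 for Gata1 up to 1.15 for Slc4a1, with a median of 0.85. The median size of that gap over all genes was 0.10 in 6-month WT, 0.10 in 2-month WT and 0.13 in 6-month ENT1-null annulus. In 2-month WT annulus all 8 were higher on replicate 2, by 0.02 for Gata1 up to 0.92 for Kel (median 0.43), and in 6-month ENT1-null annulus all 8 were higher on replicate 2, with a median of 0.34. In 2-month ENT1-null annulus 6 were lower and 2, Gata1 and Epor, were higher on replicate 2. The median size of the gap there was 0.16, against 0.12 over all genes. Over the 8 arrays Pearson's r between the 28 pairs of genes ran from 0.955 to 0.996 (median 0.987), a description of genes that share arrays, tissue pools and the group differences.

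The genes whose pattern over the 8 arrays was most like the mean of the set were Ermap, an erythroid membrane protein (r = 0.998), Ces2g, a carboxylesterase (r = 0.998), Tspan33, a tetraspanin of erythroid progenitors (r = 0.998), and Ank1, the red cell ankyrin (r = 0.998). Bcl11a, Cmpk2, Esco2, Nusap1, Macir and Slc25a37, the last of which imports iron into erythroid mitochondria, completed the first 10. Such likeness was common: 774 of the 15518 other genes tested (4.99%) had an r of 0.95 or more. The nearest genes differed between members. For Kel they were Hemgn (r = 0.999), a nuclear factor of blood cells, and Slc25a37. For Epor they were Smc2 (r = 0.999), a condensin subunit, and Mcm7 (r = 0.999), a subunit of the replicative helicase. Slc4a1 was nearest to Nusap1 (r = 0.999), a spindle protein, and to Ccnb2, a mitotic cyclin. Gata1 was nearest to Tmpo and Brpf3, and Klf1 to Tspan33 and Blvrb. Rhag was nearest to Ces2g and Esco2, Rhd to Ermap and Ces2g, and Epb42 to Tmem154 and Tspan33.

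Most genes on a list of other transcription factors and cofactors, called transcription partners here, were also higher in 6-month ENT1-null annulus. The list is not limited to proteins that act together with Gata1 and Klf1. Gata2 and Myb on it are also on the progenitor marker list below. Of the 18, 15 rose, where 21.2% of all genes did, and none fell. The other 3 (Ldb1, Klf3 and Sox6) did not pass, and the median was 1.33. Zfpm1, the Gata1 cofactor FOG-1, rose by 1.89 ± 0.17, Lmo2, the bridging protein of the complex, by 1.64 ± 0.22, and Tal1, its basic helix-loop-helix factor, by 1.19 ± 0.15. Ldb1, the looping cofactor of the complex, differed by 0.22 ± 0.08 (adjusted p = 0.0721). At 2 months 1 of the 18 passed, where 0.296% of all genes passed upward, and the median was 0.57. It was Nfe2, a basic leucine zipper factor of globin genes named after its value was seen, with 0.84 ± 0.10 (adjusted p = 0.0388).

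Of 13 erythropoietin signalling genes measured, 4 rose at 6 months, where 21.2% of all genes did, and 9 did not pass, with a median of 0.09. At 2 months none passed by limma, and the median was -0.05. An unadjusted p under 0.05 at 2 months, which 19.4% of all genes had, was found for Kit, with a difference of 0.82, and for Stat5b (-0.29), Bcl2l1 (-0.32) and Socs2 (-0.43), the last 3 with values below 0. The 4 that rose at 6 months were also named after their values were seen: Pim1, a survival kinase (1.62 ± 0.15), Kit, the stem cell factor receptor (2.82-fold), Bcl2l11, a pro-apoptotic protein (0.61 ± 0.14), and Bcl2l1, an anti-apoptotic protein (0.36 ± 0.12, adjusted p = 0.0475). Without 6-month ENT1-null replicate 2 or 6-month WT replicate 1 the count was 2. Epo itself differed by -0.05 ± 0.11 at 6 months (adjusted p = 0.719). Jak2, the kinase bound to the receptor, differed by 0.19 ± 0.09 (adjusted p = 0.131), and its targets Stat5a and Stat5b by 0.32 ± 0.11 and -0.03 ± 0.08 (adjusted p of 0.0517 and 0.758).

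Of the red cell membrane skeleton, 10 of 10 measured genes rose at 6 months, where 21.2% of all genes did, with a median of 1.13. The list is not limited to genes particular to red cells. It holds Actb, beta-actin, and Tpm3, a tropomyosin, which rose by 0.72 ± 0.10 and 0.58 ± 0.16 and were named after their values were seen. Ank1, which ties Slc4a1's protein to spectrin, rose by 2.00 ± 0.23, Sptb, the erythroid beta spectrin, by 1.59 ± 0.18, Dmtn, an actin-bundling protein, by 1.33 ± 0.15, and Add1, an adducin, by 0.83 ± 0.09. At 2 months none of the 10 passed by limma, 7 had an unadjusted p under 0.05, as did 19.4% of all genes, and the median was 0.55. Of 15 other red cell surface proteins, 11 rose, 1 fell and 3 (Icam4, Bcam and Bsg) did not pass at 6 months, with a median of 1.00. Gypc, glycophorin C, rose by 1.40 ± 0.18, Xk, the partner of the Kell protein, by 1.27 ± 0.16, and Cd47, the signal against phagocytosis, by 0.75 ± 0.10, while Icam4 differed by 0.16 ± 0.08 (adjusted p = 0.149). The gene that fell, named after its value was seen, was Slc2a1, the glucose transporter GLUT1, by 0.80 on the log2 scale (SE 0.21). Slc2a1 lay between 10.19 and 11.47 over the arrays. The surface list is not limited to genes particular to red cells, and presence of each protein on mouse red cells was not examined here. At 2 months none of the 15 passed by limma, 11 had an unadjusted p under 0.05, and the median was 0.56.

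Late erythroid products rose as well at 6 months, 9 of 9 measured, where 21.2% of all genes did, with a median of 1.85. Trim10 (2.45 ± 0.24), Hemgn (2.24 ± 0.35) and the carbonic anhydrases Car2 (2.13 ± 0.44) and Car1 (1.92 ± 0.44) were among them. At 2 months 1 of the 9 passed, where 0.296% of all genes passed upward. It was Fech, which inserts iron into haem and was named after its value was seen, with 1.08 ± 0.17 (adjusted p = 0.0493). The median at that age was 1.08. The globin genes Hba-a1, Hbb-bt and Hbb-bs, and Alas2, Ahsp, Epb41 and Lyn, had no probe set naming them alone and were not analysed here.

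**Figure D3:**
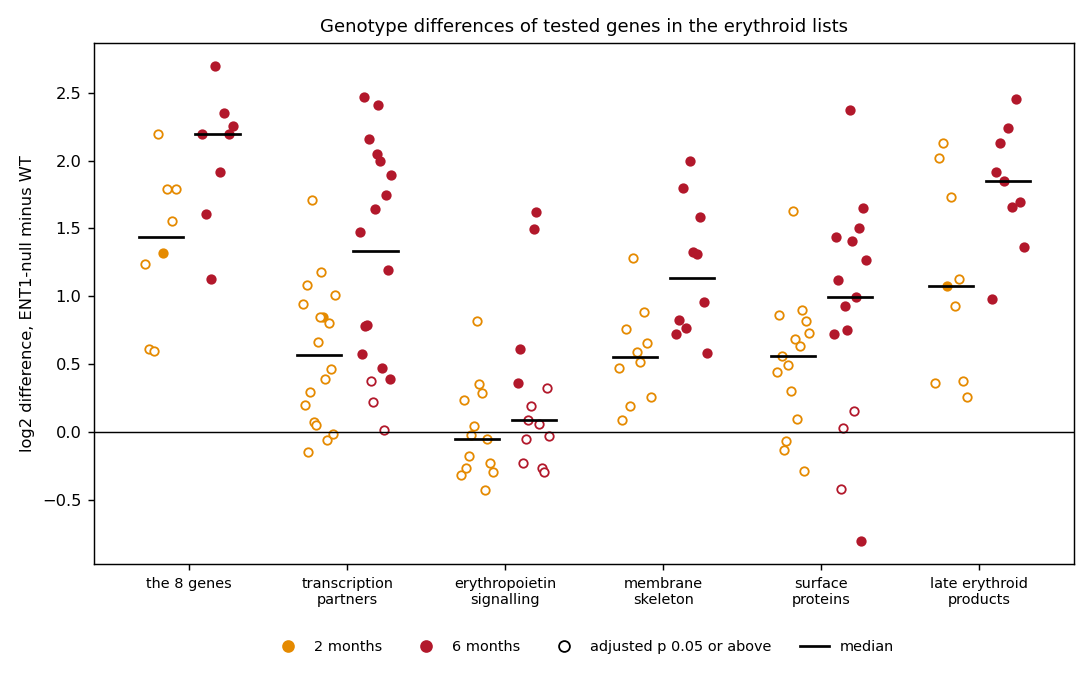
Log2 difference, ENT1-null minus WT, at 2 and at 6 months (vertical axis) for the 8 genes and for each tested gene of 5 lists of erythroid pathway genes; circles are genes, open where the adjusted p was 0.05 or above, and bars are medians. At 6 months the list medians are 1.33 for transcription partners, 0.09 for erythropoietin signalling, 1.13 for the membrane skeleton, 1.00 for surface proteins and 1.85 for late erythroid products.

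Markers of other cells were measured beside the erythroid set. Of the 12 annulus and cartilage markers, Acan lay between 11.87 and 12.92 and Comp between 11.37 and 12.70 over the arrays. At 6 months 9 of the 12 fell, as did 17.6% of all genes, 1 rose and 2 did not pass, with a median of -0.82, among them Acan, Comp and Col2a1 lower by 0.62, 0.82 and 0.82 on the log2 scale and Col1a1 higher by 1.35 ± 0.33. At 2 months none passed by limma, 6 had an unadjusted p under 0.05, as did 19.4% of all genes, and the median was -0.23.

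Neutrophil markers were higher in ENT1-null annulus too. At 6 months 14 of 14 rose, where 21.2% of all genes did, with a median of 2.56. At 2 months none passed by limma, 13 had an unadjusted p under 0.05, as did 19.4% of all genes, and the median was 1.53. Their mean level was 8.79 and 10.06 in 2-month WT, 10.79 and 11.14 in 2-month ENT1-null, 10.14 and 8.69 in 6-month WT, and 11.83 and 11.77 in 6-month ENT1-null annulus. The mean of the 8 erythroid genes on the same arrays was 7.25 and 7.72, 8.95 and 8.80, 8.39 and 7.61, and 9.88 and 10.20. On both lists 6-month WT replicate 1 was above replicate 2, and 2-month WT replicate 2 was above replicate 1. Between the ENT1-null arrays the medians had opposite signs, replicate 2 minus replicate 1 being 0.42 for neutrophil markers and -0.16 for the erythroid genes at 2 months, and -0.08 and 0.34 at 6 months. Elane, the neutrophil elastase gene, ranged from 9.14 to 12.76 over the arrays, and Mpo, myeloperoxidase, from 8.73 to 12.20.

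Other blood-cell lists held fewer genes, and 21.2% of all genes rose at 6 months. At 6 months 6 of 7 megakaryocyte and platelet markers rose (median 1.42), as did 5 of 5 tested eosinophil markers (2.71), 7 of 9 tested markers of the macrophages of erythroblast islands (1.57), 5 of 6 tested B lineage markers (1.33) and 4 of 8 haematopoietic progenitor markers (0.34). Of the progenitor markers 3 lay below 0, Cd34, a surface sialomucin, being the lowest at -0.33 ± 0.12 (adjusted p = 0.0615). Among those that rose, Kit was already counted with erythropoietin signalling. Gata2 and Myb, named after their values were seen, were already counted with the transcription partners. Of 8 mast cell and basophil markers 5 did not pass the filter on low values, among them Mcpt4, Tpsb2 and Cma1. In that order, group means were 3.82, 5.27 and 5.04 in 6-month WT and 3.79, 5.21 and 4.96 in 6-month ENT1-null annulus. The 3 that passed the filter rose, Cpa3 and, named after their values were seen, Mcpt8 and Hdc. Cpa3 lay above the filter's level of 6.21 on all 4 WT arrays (6.37 to 7.35). Whether Mcpt8 and Hdc did was not examined, so their results are no support. At 2 months 2 eosinophil markers, Epx and Ccr3, passed, where 0.296% of all genes passed upward. Ccr3 lay under the filter's level of 6.21 on all 4 WT arrays (5.13 to 5.65) and entered the test through its ENT1-null levels. Its calls at 2 and at 6 months are therefore no support, and the eosinophil counts and medians at both ages include it. No gene of the other lists passed by limma at 2 months, and the medians were 1.03 for megakaryocyte, 1.55 for eosinophil, 0.75 for island macrophage, 0.55 for B lineage and 0.22 for progenitor markers. An unadjusted p under 0.05 was found at 2 months for 6 of 7, 5 of 5, 7 of 9, 2 of 6 and 5 of 8 of them in that order, for the 3 mast cell and basophil markers tested, and for 19.4% of all genes. The erythroid marker list itself, with 9 measured genes, held the 8 genes and Hemgn. The part of a different content of blood-forming tissue in these differences was not tested.

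Skeletal muscle markers ran another way. At 6 months 9 of 10 fell, where 17.6% of all genes did, with a median of -2.34. At 2 months none passed by limma, none had an unadjusted p under 0.05, as 19.4% of all genes had, and the median was 1.04. Their mean level was 7.78 and 9.10 in 2-month WT, 8.68 and 10.25 in 2-month ENT1-null, 10.21 and 10.06 in 6-month WT, and 7.29 and 8.39 in 6-month ENT1-null annulus. Within 2-month ENT1-null annulus the muscle markers differed by a median of 1.47 between the 2 arrays, while the 8 erythroid genes differed by a median of -0.16.

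**Figure D4:**
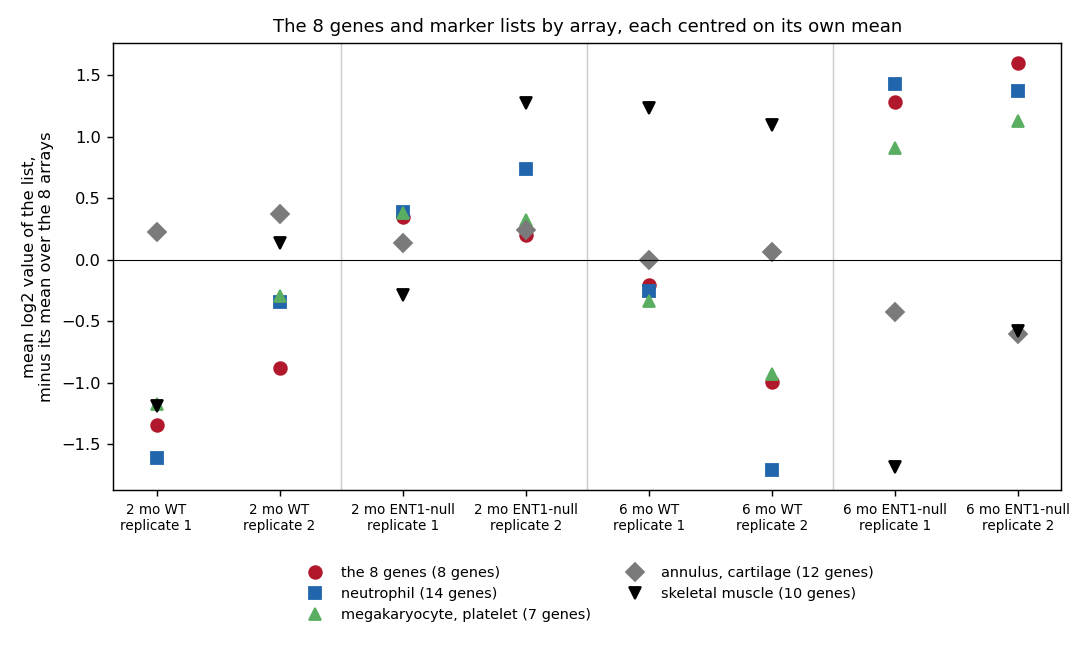
Mean log2 level of each marker list on each of the 8 arrays, centred on the list's mean over the arrays (vertical axis), for the 8 erythroid genes and the neutrophil, megakaryocyte, annulus and muscle markers; the horizontal axis gives the arrays by group. The erythroid genes run from -1.35 in 2-month WT to 1.60 in 6-month ENT1-null annulus and the neutrophil markers from -1.71 to 1.43, while the muscle markers have their lowest array, at -1.69, in 6-month ENT1-null annulus.

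Slc29a1 was lower in both ENT1-null groups, in the direction of the labels. It measured 10.71 and 10.69 in 2-month WT, 9.21 and 9.36 in 2-month ENT1-null, 10.34 and 10.43 in 6-month WT, and 8.90 and 8.80 in 6-month ENT1-null annulus. The differences were -1.41 ± 0.09 at 2 months (adjusted p = 0.00724) and -1.53 ± 0.09 at 6 months (adjusted p = 0.000354), and the place of its probes relative to the deleted exons is not known. Array medians lay between 6.77 and 6.82, and 2 arrays per group limit the precision of every value.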

How the data were processed

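Values are the authors' deposited log2 intensities, made by RMA from Affymetrix arrays per the submitters' processing notes and labels. RMA corrects background, normalizes quantiles between arrays and summarises probe sets, so values are relative within each probe set. The array's genome build is not given in the sources used here. Of 41345 probe sets, 23521 named 1 gene, 1814 several and 16010 none. Each gene was read from its single-gene probe set with the highest mean of the 8 arrays, and 15526 genes with means at or above the 30th percentile (6.21) were tested. The fit of group means used limma 3.58.1 under R 4.3.3 (4 residual degrees of freedom, empirical Bayes, Benjamini-Hochberg over all genes tested, adjusted p under 0.05). The fit was tested on simulated data. Named genes were the 8, Slc29a1, the first 4 genes of each list with a probe set, and the genes of highest r, passing over predicted genes. Any other measured gene was named after its values were seen. Genes and lists were chosen with earlier results of these data known. Replicate numbers were not used to pair samples: the labels tie none to a shared batch or animal, and the deviations of same-numbered arrays correlated between -0.39 and 0.41 over the 6 pairs of groups (0.41 between the 2-month genotypes). Alternatives changed the filter, normalization, probe sets, replicate block, variance model, samples and threshold.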

Additional observations from a re-analysis of the deposited data

How the results depend on the processing

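At 6 months all 8 genes passed under every alternative, with Kel between 2.21 and 3.18 and Gata1 between 0.92 and 1.33. At 2 months all 8 stayed above 0 and the count passing, 1, was 0 with no filter, with the replicate block over all 8 arrays (Klf1 adjusted p = 0.0821, and 0.0282 to 0.254 over all alternatives) and with only the arrays compared, 2 after quantile normalization or median centring, 6 after centring on medians of named genes (chosen after seeing the data), 7 at an adjusted p under 0.1, and 0 to 6 leaving out 1 array. Transcription partners passing at 2 months, 1, were 3 after quantile normalization, 4 after median centring, 7 after named-gene centring, 0 with the block, 4 with trend and robust, 0 with only the arrays compared, 8 at 0.1, and 0 to 5 without 1 array. Late erythroid products, 1, were 0 with no filter, 6 after named-gene centring, 0 with all probe sets, 0 with the block, 2 with trend, 0 with only the arrays compared, 6 at 0.1, and 0 to 5 without 1 array. Surface proteins, 0, were 1 with the stricter filter, 1 after quantile normalization or median centring, 3 after named-gene centring, 2 with trend, 5 at 0.1, and 0 to 4 without 1 array. Membrane skeleton genes, 0, were 3 after named-gene centring, 6 at 0.1, and 0 to 2 without 1 array. Erythropoietin signalling, 0, was 1 at 0.1, and its 4 at 6 months were 2 to 4 without 1 array. The difference between ages, 0, was 1 (Epor) after named-gene centring, 1 at 0.1, and 0 to 1 without 1 array. Slc4a1's difference of differences ran from -0.10 to 1.04 and Epor's age difference in WT from -0.21 to 0.30 without 1 array. In ENT1-null mice 7 genes passed between ages, 4 with trend and robust, 6 with the replicate block, and 0 to 8 without 1 array. The block over all arrays changed no other call among the 8 genes in these comparisons. Numbers crossed between 2-month and 6-month WT or between the 6-month genotypes (chosen after seeing the data) gave 0 and 5324 calls. At 2 months, where same-numbered arrays correlated at 0.41, a block in a fit of only the 4 arrays of that age (chosen after seeing the data) gave 1339 calls over all genes and 8 of the 8 genes, and crossed numbers gave 0 and 0. Causes were not tested. Over all genes the other alternatives gave 0 to 823 calls at 2 months (106 as reported), 3670 to 7448 at 6 months (6022), 0 to 2383 for the difference between ages (691), 1519 to 4658 between ages in ENT1-null mice (3442) and 0 in WT. With 2 arrays per group, adjusted p near the threshold moves with each array's spread.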
